A study of Mus musculus with 13 samples.

Results

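p63, encoded by Trp63, is a transcription factor of the p53 family that is made in different isoforms. In the basal layer of the epidermis the ΔNp63α isoform maintains the genes of keratinocyte adhesion and differentiation, whereas resting oocytes hold TAp63α, which is kept inactive until DNA double-strand breaks switch it on. A set of 9 genes known as p63 targets or as markers of the epidermis, Perp, Cldn4, Fermt1, Itgb4, Lypd3, Krtdap, Asprv1, Krt5 and Krt14, were followed in oocytes after γ-irradiation, 9 of the 49585 genes summed from the deposited files. They were selected on the epithelial role of their products together with known results of the 0.5 Gy libraries, so the values at 0.5 Gy describe them and are not a test of them. Perp, Cldn4, Fermt1 and Itgb4 encode adhesion proteins, Lypd3, Krtdap and Asprv1 belong to the suprabasal epidermis, and Krt5 and Krt14 are the keratin pair of basal keratinocytes.

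RNA came from oocytes of ovaries of CD-1 mice at P5. The ovaries were kept in culture overnight, irradiated with γ-rays, and the oocytes were then isolated by trypsin digestion and centrifugation, with 4 ovaries per time point. After 0.5 Gy there were 2 libraries per time point at 0, 1 and 4 h and a single one at 2.5 h and at 6 h, and after 0.2 Gy a single library at each of the same 5 time points. The 0 h libraries were taken before irradiation. No later time point had an unirradiated library, so irradiation and time in culture cannot be told apart. The labels put replicate 1 of 0, 1 and 4 h at 0.5 Gy in the first generation. The remaining 0.5 Gy libraries, the single ones of 2.5 and 6 h among them, are in the second, and all of 0.2 Gy in the third. Dose and generation therefore cannot be told apart. The labels do not say that replicates came from separate animals, so p-values measure only the spread between these libraries. In what follows, early means 0 and 1 h and late means 2.5, 4 and 6 h at 0.5 Gy, and 4 and 6 h at 0.2 Gy. Levels are CPM, reads of a gene relative to the total of its library after scaling between libraries, unless TPM, which is also corrected for transcript length, is named.

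The libraries held 15709549 to 30430104 estimated reads, the fewest in replicate 2 of 0 h at 0.5 Gy. The 12 oocyte markers were all present in every library and summed to between 3272 and 5232 CPM. The 10 granulosa cell markers summed to 1812 to 3643 CPM, the 6 stromal markers to 1776 to 3469 CPM and the 5 erythroid markers to 859 to 6179 CPM, with none of these markers at 0 in any library. The label of oocytes was thus met by its markers, but RNA of other ovarian cells was present in all libraries. In such bulk samples, fewer cells of a type and less RNA per cell cannot be told apart. Trp63 itself stood at 83.4 ± 24.6 CPM (SD, n = 4) in the early and 86.8 ± 18.2 CPM (SD, n = 4) in the late libraries of 0.5 Gy. Its log2 change was 0.05 ± 0.23 (SE, edgeR adjusted p = 0.968) at 0.5 Gy and 0.06 ± 0.38 (adjusted p = 0.984) at 0.2 Gy, and its isoforms are not separated, since all transcripts of a gene were summed.

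Only part of this epithelial set changed level over the time course. Fermt1 and Cldn4 were higher in all late than in all early libraries at both doses, Perp varied several-fold without keeping to the time course, Lypd3 moved in a pattern that differed between the doses, and Itgb4, Krtdap, Asprv1, Krt5 and Krt14 stayed at or below 2.46 CPM in 12 of the 13 libraries. The remaining library, replicate 1 of 1 h at 0.5 Gy, held most of the reads of Krtdap, Krt5 and Krt14. At 0.2 Gy, where each side held 2 libraries, Lypd3 also lay higher in all late libraries, and Asprv1 and Krt5 lay lower. Krt5 held only 8 and 14 reads early and 4 and 0 late there. With 2 libraries on a side, genes that do not change can separate too. How many of all genes separate in this way was not counted, so separation of the sides is a description. Read per length, the median TPM over the 13 libraries was 5.98 for Fermt1, 4.39 for Krtdap, 4.18 for Perp, 1.98 for Cldn4, 0.866 for Lypd3, 0.189 for Asprv1, 0.1445 for Itgb4, 0.0595 for Krt14 and 0.0287 for Krt5. The ranges of neighbours in this order overlapped in every case, so the order of neighbours is not separated from their spread. The TPM of Fermt1 and Krtdap rests largely on short annotated transcripts, as described with these genes.

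**Figure D1:**
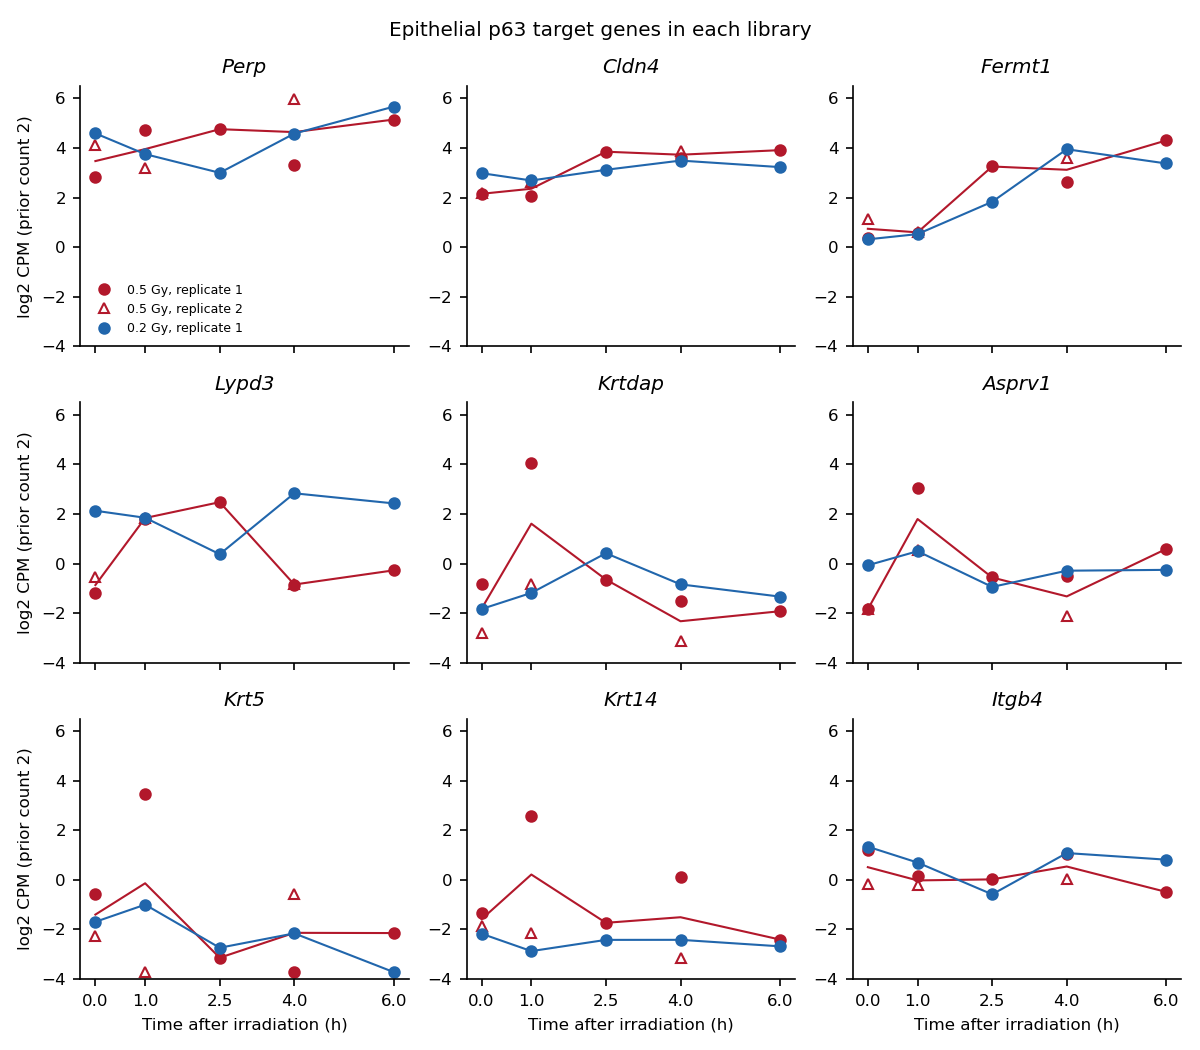
Level of each of the 9 genes in every library, as log2 CPM with a prior count of 2 (vertical axis), against time after irradiation in h (horizontal axis). Red marks 0.5 Gy (filled circles replicate 1 or the single library of 2.5 and 6 h, open triangles replicate 2) and blue 0.2 Gy. Lines join the means per time point. Fermt1 and Cldn4 are higher at 4 and 6 h at both doses, and the highest points of Krtdap, Asprv1, Krt5 and Krt14 all belong to replicate 1 of 1 h at 0.5 Gy.

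The promoter sequences of the genes called at 0.5 Gy, Fermt1 and Cldn4, and of Krt5, a basal keratin low in most libraries, are shown side by side. Each run is the 250 bases before the RefSeq start of the gene on build GRCm38.p6, written 5′ to 3′ on the gene's strand, with capitals marking matches of a searched motif. Entries were found for 7 of the 9 genes, with Perp and Itgb4 having none.
Fermt1 (chr2:132946037-132946286, minus strand): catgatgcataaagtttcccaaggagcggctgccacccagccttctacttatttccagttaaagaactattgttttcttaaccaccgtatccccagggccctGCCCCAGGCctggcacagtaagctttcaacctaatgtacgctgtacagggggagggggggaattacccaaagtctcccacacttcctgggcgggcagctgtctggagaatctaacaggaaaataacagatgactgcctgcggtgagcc
Cldn4 (chr5:134946935-134947184, minus strand): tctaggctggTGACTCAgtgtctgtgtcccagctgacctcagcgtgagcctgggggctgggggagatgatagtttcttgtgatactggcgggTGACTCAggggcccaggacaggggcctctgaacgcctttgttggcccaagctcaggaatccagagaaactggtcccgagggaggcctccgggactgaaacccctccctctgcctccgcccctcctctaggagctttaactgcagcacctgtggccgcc
Krt5 (chr15:101712906-101713155, minus strand): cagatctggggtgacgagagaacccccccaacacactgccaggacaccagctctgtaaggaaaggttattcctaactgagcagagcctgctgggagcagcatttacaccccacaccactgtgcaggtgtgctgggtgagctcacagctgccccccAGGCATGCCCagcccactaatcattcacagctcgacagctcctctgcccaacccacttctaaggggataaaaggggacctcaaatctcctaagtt
The search covered both strands for the half-site of the p53 family, for the AP-1 motif TGANTCA and for the AP-2 motif GCCNNNGGC, and no capitals in these 3 runs overlap. The run of Cldn4 held 2 matches of AP-1, starting 240 and 158 bases before the gene, that of Fermt1 held 1 match of AP-2 at 148 bases, and that of Krt5 held 1 half-site of the p53 family at 95 bases. Among the 7 genes with an entry, 1 held a half-site, 2 held AP-1 and 1 held AP-2, while of all 32851 promoters of this length 7.13% held a half-site, 6.75% AP-1 and 13.7% AP-2. The Krt14 window, without a match, is chr11:100206031-100206280. It lies within the span of the gene used for the read sums (chr11:100203162-100207548), not upstream of it. A match describes letters in this window, and a window without a match says nothing about binding elsewhere.

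Fermt1 (ENSMUSG00000027356, chr2:132904389-132945906, minus strand, GRCm38) encodes kindlin-1, which activates integrins in basal keratinocytes. At 0.5 Gy its level was 1.21 and 2.09 CPM in the 0 h libraries and 1.42 and 1.46 CPM at 1 h, then 9.46 CPM at 2.5 h, 6.16 and 12.1 CPM at 4 h and 19.7 CPM at 6 h. At 0.2 Gy it was 1.17 CPM at 0 h, 1.37 CPM at 1 h, 3.48 CPM at 2.5 h, 15.4 CPM at 4 h and 10.3 CPM at 6 h. At each dose every late library lay above every early one, and the 2.5 h library lay with the late ones at 0.5 Gy and between the sides at 0.2 Gy. The early mean was 1.55 ± 0.38 CPM and the late mean 11.8 ± 5.76 CPM at 0.5 Gy (SD, n = 4 each), a log2 fold change of 2.94 ± 0.40. Leaving out libraries singly gave changes between 2.58 and 3.17 at 0.5 Gy, and the call held in 2 of those 8 fits, without the 2.5 h library and without replicate 1 of 4 h.

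The reads of Fermt1 were spread over 4 annotated transcripts, and in 3 of them every late library lay above every early one at both doses. The protein-coding transcript of 4915 nt took 39.5% of the gene's reads over all libraries, with 4.0 to 20.1 estimated reads in the early and 68.7 to 145.4 in the late libraries of 0.5 Gy. A pair of short processed transcripts of 317 and 447 nt, which touch exons 2 to 4 of the protein-coding form (chr2:132936113-132942097 for the longer span), took 20.8% and 13.8%. The 317 nt form had 0.0 to 6.5 estimated reads in the early and 27.0 to 109.0 in the late libraries of 0.5 Gy, so the sides did not overlap. The form with a retained intron, 5236 nt long, took 25.9% and had 6.7 to 34.7 reads early and 8.8 to 217.3 late, with overlap between the sides. With protein-coding transcripts alone, the log2 fold change at 0.5 Gy was 2.62 and was no longer called. At 0.2 Gy it was 5.28 in this setting, not called (edgeR adjusted p = 0.188), with 3.1 and 7.4 such reads in the early libraries. On TPM, where the short forms weigh more, the log2 ratio of late to early means was 5.12 in place of 2.94 by CPM. Of the 5703 30-mers in Fermt1's transcripts, 0.333% also occur in transcripts of another gene, on either strand.

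**Figure D2:**
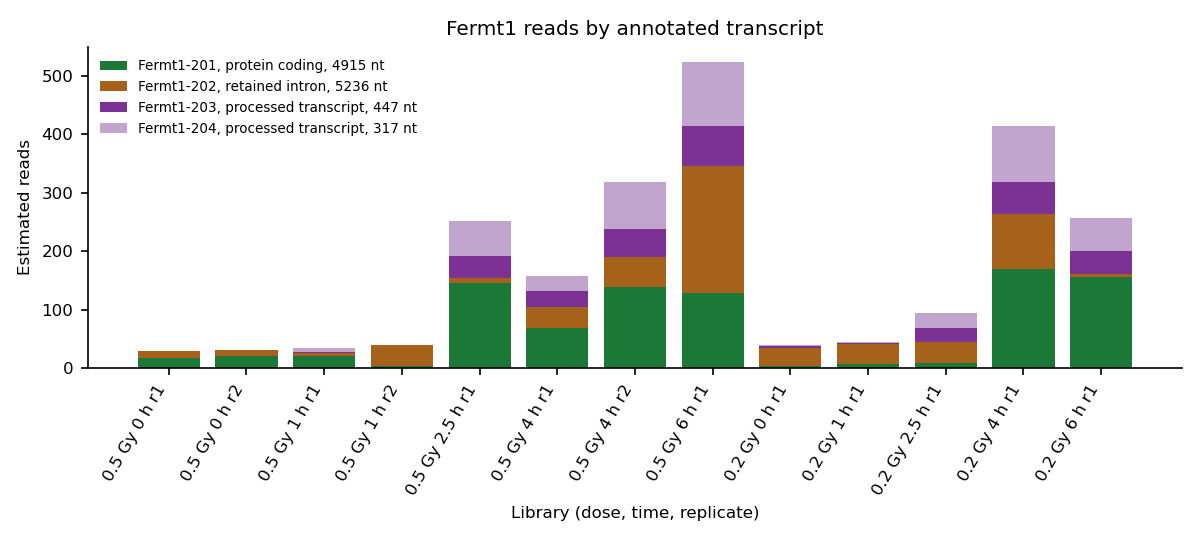
Estimated reads of Fermt1 (vertical axis) in each of the 13 libraries (horizontal axis, r1 and r2 for replicates), stacked by annotated transcript. The early libraries hold at most 45.3 reads at both doses, and the late libraries of 0.5 Gy hold 158.1 to 523.6, with all 4 transcripts contributing.

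Cldn4 (ENSMUSG00000047501, chr5:134945119-134946934, minus strand) encodes claudin-4, a tight junction protein of simple and stratified epithelia. Its levels at 0.5 Gy were 4.29 and 4.46 CPM at 0 h, 4.14 and 6.16 CPM at 1 h, 14.3 CPM at 2.5 h, 12.0 and 14.5 CPM at 4 h and 14.99 CPM at 6 h. At 0.2 Gy they were 7.83, 6.37, 8.63, 11.2 and 9.30 CPM in order of time. Late libraries lay above early ones at both doses, with a wide gap at 0.5 Gy and a narrow one at 0.2 Gy, where the early levels were above those of 0.5 Gy. The means at 0.5 Gy were 4.76 ± 0.94 CPM early and 14.0 ± 1.36 CPM late (SD, n = 4 each), a log2 fold change of 1.54 ± 0.25. The size of this change held between 1.48 and 1.71 when libraries were left out singly, but Cldn4 was called in none of those 8 fits. Cldn4 has 1 annotated transcript, and 0.336% of its 30-mers also occur in Cldn3, a neighbouring family member.

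Perp (ENSMUSG00000019851, chr10:18845020-18857073, plus strand) encodes a tetraspan membrane protein of desmosomes and was the most abundant of the 9 by mean CPM, at 24.2 ± 17.1 CPM (SD, n = 13). At 0.5 Gy it was measured at 6.99 and 17.4 CPM at 0 h, 26.1 and 9.11 CPM at 1 h, 27.0 CPM at 2.5 h, 9.82 and 62.8 CPM at 4 h and 35.4 CPM at 6 h. Replicates of the same time point therefore differed by several-fold, and early and late libraries overlapped. At 0.2 Gy the levels were 24.0, 13.4, 7.92, 23.9 and 50.8 CPM in order of time, and here too the sides overlapped. The log2 fold change was 1.17 ± 0.51 at 0.5 Gy, which was not called. None of Perp's 30-mers occurs in another gene.

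Itgb4 (ENSMUSG00000020758, chr11:115974709-116008412, plus strand) encodes the integrin β4 subunit, which anchors basal keratinocytes at hemidesmosomes. It stayed between 0.592 and 2.46 CPM in all 13 libraries, with early and late libraries overlapping at both doses. Its log2 fold change at 0.5 Gy was −0.12 ± 0.51, and the sign turned to 0.35 without replicate 1 of 0 h. A long non-coding gene, B230344G16Rik, overlaps it on the other strand and held 2 to 43 reads per library, and 5.95% of Itgb4's 30-mers occur in other genes on either strand.

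Lypd3 (ENSMUSG00000057454, chr7:24636550-24641118, plus strand) encodes C4.4A, a GPI-anchored protein of suprabasal keratinocytes. At 0.5 Gy it was measured at 0.364 and 0.608 CPM at 0 h, at 3.45 and 3.55 CPM at 1 h, at 5.48 CPM at 2.5 h, at 0.468 and 0.493 CPM at 4 h and at 0.751 CPM at 6 h. Both 1 h libraries and the 2.5 h library thus stood above all others of that dose, and replicates at each time point lay close together. At 0.2 Gy the levels were 4.30, 3.52, 1.22, 7.05 and 5.29 CPM in order of time, lowest at 2.5 h, and the 0 h library stood above both 0 h libraries of 0.5 Gy although none of the 3 had been irradiated. Against the 0 h libraries at 0.5 Gy, Lypd3 was higher at 2.5 h by a log2 fold change of 3.53 ± 0.70 and at 1 h by 2.88 ± 0.63. An antisense gene, Gm26550, shares 10.5% of Lypd3's 30-mers when strand is not used, and it held 0 to 14 reads per library against 9 to 190 for Lypd3.

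Krtdap (ENSMUSG00000074199, chr7:30787896-30791097, plus strand), which encodes a secreted protein of stratified epithelium, Asprv1 (ENSMUSG00000033508, chr6:86628164-86629710, plus strand), which encodes the protease SASPase of the granular layer, and the basal keratin genes Krt5 (ENSMUSG00000061527, chr15:101707070-101712898, minus strand) and Krt14 (ENSMUSG00000045545, chr11:100203162-100207548, minus strand) had their highest level in the same library, replicate 1 of 1 h at 0.5 Gy. Krtdap stood at 16.5 CPM there and at 0.038 to 1.26 CPM in the other 12 libraries. Asprv1 stood at 8.19 CPM there and at 0.152 to 1.43 CPM elsewhere. Krt5 reached 10.8 CPM there and at most 0.607 CPM elsewhere, and Krt14 reached 5.92 CPM there and at most 1.01 CPM elsewhere. That library held 80.2% of all Krt5 reads of the 13 libraries, 76.0% of those of Krtdap, 68.9% of those of Krt14 and 45.3% of those of Asprv1. Replicate 2 of the same time point held 13 reads of Krtdap, 4 of Krt14 and 0 of Krt5, where a count of 0 allows up to 3 reads, by counting error alone. For Asprv1 it held 37 reads, above the 5 and 3 reads of the 0 h libraries.

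Other genes of the epidermis were high in the same library. Of 15 genes of the suprabasal and cornified epidermis, 8 had their highest level there, among them Sprr1a with 77.4% of its reads, Calml3 with 70.0%, Ivl with 53.3% and Dmkn with 50.0%. Their summed level was 75.0 CPM there and between 25.1 and 37.3 CPM in the other 12 libraries, and 2 of the 15, Lor and Sprr1b, were at 0 in it. The 5 basal and stress keratins summed to 23.1 CPM there against 0.203 to 2.79 CPM elsewhere, with Krt15 at 299 and Krt17 at 261 reads. The other 3, Krt6a, Krt6b and Krt16, had 5, 4 and 1 reads there and were highest elsewhere, at 9, 14 and 9 reads. Of the 11 desmosomal genes 4 were at their most there, among them Dsp, Dsc3 and Pkp1 with 700, 240 and 88 reads, whereas Pkp3, Dsg3 and Evpl had 6, 8 and 12 reads and were higher in other libraries. Whether cells of another tissue brought these reads was not tested. Without this library the log2 fold change of Krtdap at 0.5 Gy went from −4.01 ± 1.37 to −0.44, and that of Asprv1 from −1.82 ± 1.04 to 0.20. Neither was called with or without it. Transcripts with a retained intron held 39.8%, 31.1% and 20.2% of the reads of Krtdap in its 3 most used forms, and 13.4% of Krt5's and 29.2% of Krt14's 30-mers also occur in other genes on the same strand, among them other keratins, so that their few reads may be split.

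**Figure D3:**
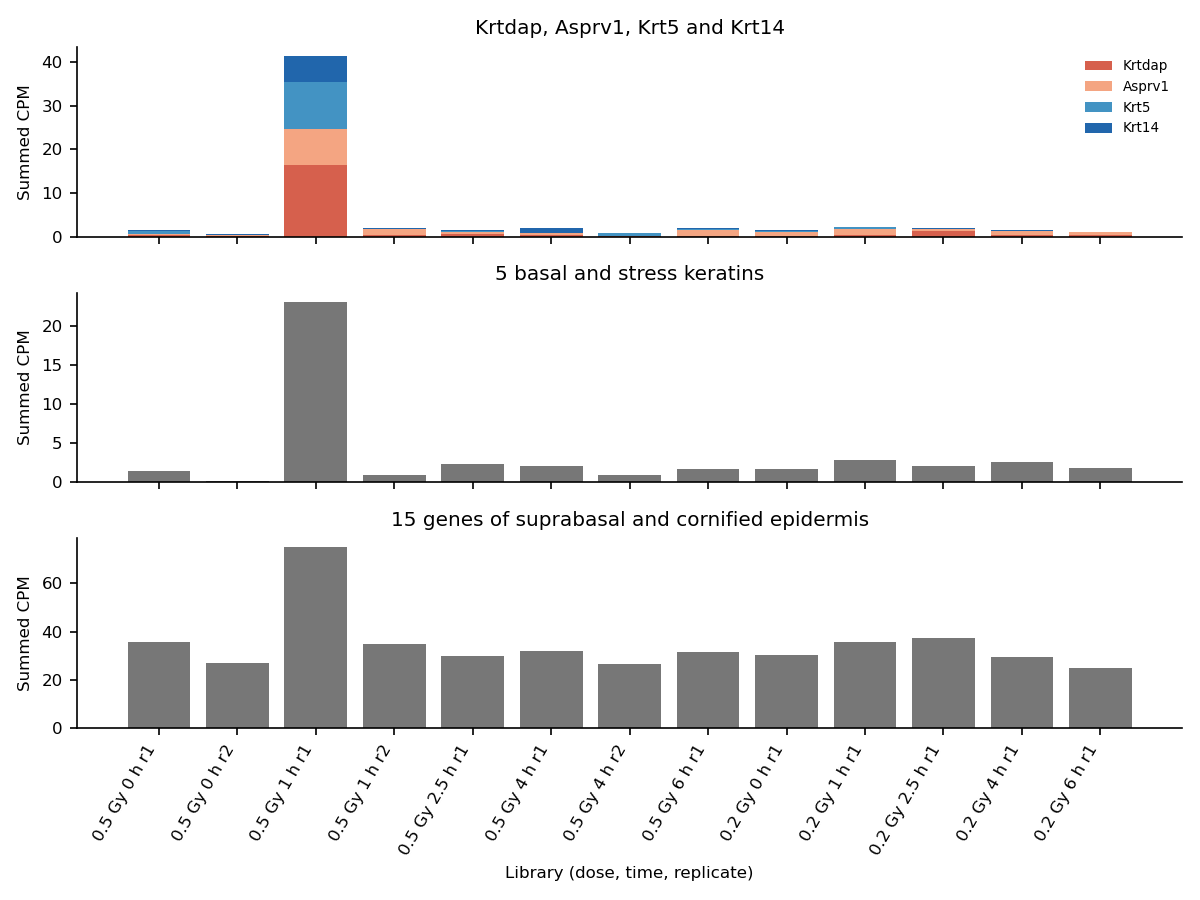
Summed CPM (vertical axes, from 0) in each of the 13 libraries for Krtdap, Asprv1, Krt5 and Krt14 (top, stacked), 5 other basal and stress keratins (middle) and 15 genes of the suprabasal and cornified epidermis (bottom). Replicate 1 of 1 h at 0.5 Gy stands above all others in each panel, at 23.1 CPM for the keratins and 75.0 CPM for the suprabasal genes.

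At 0.5 Gy, late libraries were compared with early ones by edgeR's quasi-likelihood test over all genes, with calls made where the adjusted p fell under 0.05 and the log2 fold change passed 1 in size. Of the 9, 7 had enough reads to be tested, all except Krt5 and Krt14, and the 2 called were Fermt1 and Cldn4, both higher. Among all 22588 genes tested 29 were called, 0.128%, all higher. With the generation that the labels give as a replicate block, 18 genes were called, with Fermt1 at 2.70 among them and Cldn4, at 1.48, no longer. This contrast is among those that the genes were chosen by, so the count is a description. The median log2 fold change was −0.12 over the 7 and −0.015 over all genes. Against 0 h alone, none of the 9 was called by edgeR at 1, 2.5, 4 or 6 h, where 0% of 28468 genes were called. With the replicate block 8 genes were called over these time points, none of them among the 9. At an unadjusted p under 0.05 there were 3, 3, 2 and 3 of the 9 in order of time, against 3.98%, 5.59%, 5.82% and 5.94% of all genes. The 3 at 1 h were Lypd3, Krtdap and Asprv1. For Krtdap this rests on replicate 1 of 1 h, with 406 reads, since replicate 2 held 13 and the 0 h libraries 12 and 1. Of 30, 109, 139 and 143 genes called by DESeq2, those among the 9 were Asprv1 at 1 h, Fermt1 and Lypd3 at 2.5 h, Cldn4 and Fermt1 at 4 h, and Fermt1 at 6 h. Asprv1 stood at 8.19 and 1.38 CPM in the 1 h libraries, both above the 0.202 and 0.203 CPM of 0 h.

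The 0.2 Gy libraries were compared in the same way, 4 and 6 h against 0 and 1 h, fitted together with the 0.5 Gy libraries of those times, 11 in all. None of the 9 was called, against 0.0462% of 28162 genes, of which 13 were called. Fermt1 had the largest change, with a log2 fold change of 3.32 ± 0.55 (edgeR adjusted p = 0.0686, 95% interval from 2.14 to 4.51), higher in 2 of 2 late libraries. It was the single one of the 9 at an unadjusted p under 0.05, where 7.29% of all genes stood, and DESeq2, with 147 calls in all, called it with an adjusted p of 1.07e-07. With the replicate block on the generations of 0.5 Gy, edgeR called it too (adjusted p = 0.0293). Over all alternatives the adjusted p of this change lay between 1.07e-07 and 0.634, the highest without the 0 h library of 0.2 Gy. Perp changed by 0.98 ± 0.74 (adjusted p = 0.793), Lypd3 by 0.65 ± 0.84 (adjusted p = 0.887) and Cldn4 by 0.51 ± 0.33 (adjusted p = 0.763). The interval of Cldn4 ran from −0.20 to 1.23. Markers of other ovarian cells moved in this contrast by amounts similar to those of Perp, Lypd3 and Cldn4, with medians below the change of Fermt1. Of 10 granulosa markers 9 were higher (median 0.54, 3 at an unadjusted p under 0.05), and of 6 stromal markers 5 (median 0.54). Of 10 markers of the ovarian surface epithelium 8 were higher (median 0.70), and of 5 erythroid markers 5 (median 0.73, 1 at an unadjusted p under 0.05). None of these markers was called. Their part in the changes of the 9 genes was not tested. The changes of Krtdap, Asprv1, Krt5, Krt14 and Itgb4 lay between −2.06 and 0.48, each with an SE larger than its size. Against the 0.2 Gy library of 0 h, none of the 9 was called at any time, while 0%, 0%, 0.0032% and 0.0064% of 31254 genes were called at 1, 2.5, 4 and 6 h. Under the replicate block the calls over these time points came to 11, none of them among the 9. At an unadjusted p under 0.05 there were 0, 1, 1 and 1 of the 9, against 1.12%, 2.75%, 2.93% and 3.02% of all genes. DESeq2 called 16, 55, 63 and 60 genes, with Fermt1 among them at 4 and 6 h and no other of the 9.

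The difference between the doses asks whether late and early libraries differed by more at 0.5 than at 0.2 Gy. Here late means 4 and 6 h at both doses, since the 2.5 h libraries were left out of this fit of 11, and without 2.5 h the change at 0.5 Gy was −1.80 in place of −0.15 for Lypd3 and −4.68 in place of −4.01 for Krtdap. None of the 9 was called by edgeR or by DESeq2, against 0.032% of 28162 genes by edgeR and 131 genes by DESeq2. An unadjusted p under 0.05 was found for 3 of the 9 and for 8.14% of all genes. The change of Cldn4 was larger at 0.5 Gy by 1.02 ± 0.42 on the log2 scale (edgeR adjusted p = 0.579, interval from 0.11 to 1.92). Lypd3 differed by −2.45 ± 1.10 (adjusted p = 0.605) and Krtdap by −5.17 ± 2.34 (adjusted p = 0.606), which became −1.58 for Krtdap without replicate 1 of 1 h at 0.5 Gy. Fermt1 differed by −0.29 ± 0.64, with an interval from −1.67 to 1.09, so that a difference of more than 2-fold in either direction lies within it. With protein-coding transcripts only, the difference of Fermt1 was −2.75 (edgeR adjusted p = 0.639), so its size depends on which transcripts are summed. Because the doses belong to different generations, a difference between them cannot be told apart from one between generations.

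**Figure D4:**
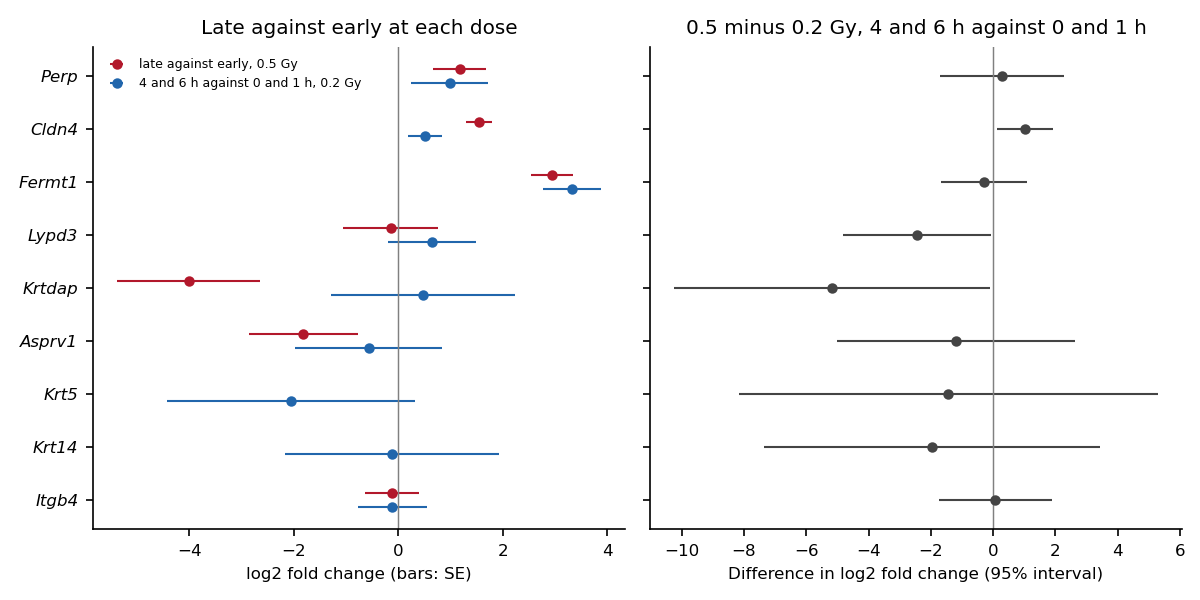
Left, log2 fold change of late against early libraries with its SE for each gene at 0.5 Gy (red, 8 libraries) and at 0.2 Gy (blue, 4 libraries in a fit of 11), with Krt5 and Krt14 tested at 0.2 Gy alone. Right, the difference between the doses with its 95% interval, from the fit of 11 libraries in which late means 4 and 6 h at both doses, so it is not the red minus the blue point of the left panel. Fermt1 lies at 2.94 and 3.32, Cldn4 at 1.54 and 0.51, and the intervals of the epidermal genes with few reads are the widest.

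Across the 13 libraries, the pattern of Fermt1 was most like that of Mdm2, a p53 target that encodes an inhibitor of p53. Pearson's r with Mdm2 was 0.966 on log2 CPM among 19835 protein-coding genes, followed by D630023F18Rik at 0.960 and Ankrd65 at 0.953. Mdm2 stood at 53.1 to 75.9 CPM in the early and 234.5 to 589.3 CPM in the late libraries of 0.5 Gy. The pattern of Cldn4 was most like that of Dcaf4 at 0.952, Cdkn1a at 0.951 and Lpin1 at 0.939, and Cdkn1a, which encodes the cell cycle inhibitor p21, stood at 3.72 to 11.6 CPM early and 45.8 to 94.3 CPM late at 0.5 Gy. Fermt1 and Cldn4 followed each other with an r of 0.86 and Perp followed Fermt1 with 0.60. The nearest genes to Perp (Micall1, Zfp553 and Slc25a12) reached 0.849, 0.837 and 0.813, and those to Lypd3 (Apobec4, Trim55 and Scd3) 0.855, 0.852 and 0.841. For Asprv1 they were Zfp648, Sprr4 and Ivl at 0.893, 0.859 and 0.850, for Krt5 Cd209a, Dsp and Calm4 at 0.898, 0.870 and 0.851, for Krt14 Hmgn3, Nfib and Dsc3 at 0.926, 0.925 and 0.920, and for Krtdap Lbh, Fn1 and Ncam1 at 0.866, 0.864 and 0.852. Ivl, Sprr4, Dsp, Dsc3 and the other partners of these epidermal genes had their highest level in replicate 1 of 1 h at 0.5 Gy, as the genes themselves did. For Itgb4 they were AL731706.1, Cntnap4 and Lrrc25 at 0.901, 0.882 and 0.849. The 13 points share their libraries and time courses, so these values describe likeness of pattern and carry no p. The 0.5 Gy libraries, whose known results were used to select the genes followed here, are among these points. A gene selected for a higher late level at 0.5 Gy will resemble other genes that are higher late there, such as Mdm2 and Cdkn1a. Whether the likeness of Fermt1 and Cldn4 to these p53 targets goes beyond that selection was not tested.

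Other epithelial genes were grouped by role, and edgeR called 1 of them at 0.5 Gy and none at 0.2 Gy. The group nearest to the 9, 14 epidermal transcription factors and p63 targets, had 1 gene called at 0.5 Gy, Ripk4, which encodes a kinase needed for keratinocyte differentiation. It stood at 6.23 to 8.37 CPM early and 17.8 to 34.6 CPM late, with a log2 fold change of 1.70 ± 0.26 (edgeR adjusted p = 0.0301), and at 0.2 Gy it changed by 1.61 ± 0.42 (adjusted p = 0.444). Its call held in 1 of the 8 fits that left out a library, without replicate 1 of 4 h, with adjusted p between 0.0222 and 0.103 and changes between 1.47 and 1.83, and it was lost with the replicate block, at 1.64 (adjusted p = 0.0666). Of those 14 genes 9 had a higher and 5 a lower late level, with a median log2 fold change of 0.41 against −0.015 over all genes, and at 0.2 Gy 10 were higher, 0 called and the median 0.18. At an unadjusted p under 0.05 there were 6 of the 14 at 0.5 Gy and 4 at 0.2 Gy, against 9.06% and 7.29% of all genes. The groups were chosen with earlier results of these data known, and the paper lists Sfn and Jag2 among its differentially expressed genes. Counts and medians of the groups are therefore descriptions, not a test of enrichment. DESeq2 called Ripk4 and Sfn among 251 genes at 0.5 Gy, and Ripk4, Sfn and Zfp750 among 147 genes at 0.2 Gy. No gene of the other groups was called at either dose by edgeR, and DESeq2 called Pkp3 and Fermt3 among them at 0.5 Gy and none at 0.2 Gy. At an unadjusted p under 0.05 at 0.5 Gy there were 2 hemidesmosome, 2 desmosome, 1 junction, 1 kindlin group and 0 keratin genes, and at 0.2 Gy 1, 0, 0, 1 and 0. The 10 markers of the ovarian surface epithelium, the layer that covers the ovary, were higher late in 7 at 0.5 Gy with a median of 0.41 and in 8 at 0.2 Gy with a median of 0.70, with 0 called by edgeR or DESeq2 and 0 at an unadjusted p under 0.05 at either dose. They summed to 82.8 to 128.9 CPM in the early and 106.8 to 150.2 CPM in the late libraries of 0.5 Gy, which overlapped, and none was at 0 in any library. Among them, Krt8 and Krt18, keratins of simple epithelia, changed by 0.36 ± 0.21 and 0.46 ± 0.28 at 0.5 Gy. Their part in the change of Cldn4, which simple epithelia also express, was not tested. The 13 tight and adherens junction genes had a median of 0.24 at 0.5 Gy and 0.11 at 0.2 Gy, with Tjp1 at −0.18 and F11r at 0.47 at 0.5 Gy. The 9 kindlins and their partners had medians of −0.02 and 0.03, with the kindlin-2 gene Fermt2 at −0.21 and Lims1 at −0.05. The 11 desmosomal genes had medians of −0.19 and −0.33, with Jup at 0.21 and Pkp2 at −0.19, and the 11 genes of hemidesmosomes and basement membrane −0.10 and −0.02, with Itga6 at −0.21 and Itgb1 at −0.08. Of the 5 basal and stress keratins 1 could be tested at 0.5 Gy, Krt15 at −1.27 (adjusted p = 0.796). Its early reads were 299 in replicate 1 of 1 h but 16, 0 and 5 in the other early libraries. Its late reads were 56, 43, 6 and 36, so the lower late level rests on that 1 library. Krt17 was tested at 0.2 Gy alone, at −0.62 ± 1.71.

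Within these groups, 3 further genes, named after their values were seen, had a larger late level without being called by edgeR. Fermt3, which encodes the kindlin of blood cells, had 63 to 255 reads early and 507 to 1436 late at 0.5 Gy, and changed by 2.11 ± 0.50 (edgeR adjusted p = 0.205) and at 0.2 Gy by 2.25 ± 0.67 (adjusted p = 0.535). Sfn, which encodes 14-3-3σ, had 8 to 63 reads early and 105 to 245 late and changed by 2.25 ± 0.54 (adjusted p = 0.209) and by 2.88 ± 0.77 (adjusted p = 0.455). Pkp3, which encodes the desmosomal plakophilin-3, had 6 to 10 reads early and 16 to 191 late and changed by 3.22 ± 0.71 (adjusted p = 0.165) and by 0.97 ± 0.88 (adjusted p = 0.828). Without replicate 2 of 4 h, which held the 191 reads, its change at 0.5 Gy was 2.30. DESeq2 called all 3 at 0.5 Gy. The 5 leukocyte markers, beside Fermt3, summed to 418.2 CPM in replicate 2 of 0 h at 0.5 Gy. S100a8, S100a9 and Ngp made up most of it, at 132.4, 50.0 and 172.1 CPM. In the other early libraries of 0.5 Gy the sum was 42.6, 76.4 and 75.7 CPM. In the late ones it was 33.0 to 69.9 CPM, so the sides overlapped. The erythroid markers summed to 2373 to 3528 CPM early and 2687 to 6179 CPM late at 0.5 Gy. The part of these cell types in the change of Fermt3 was not tested.

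**Figure D5:**
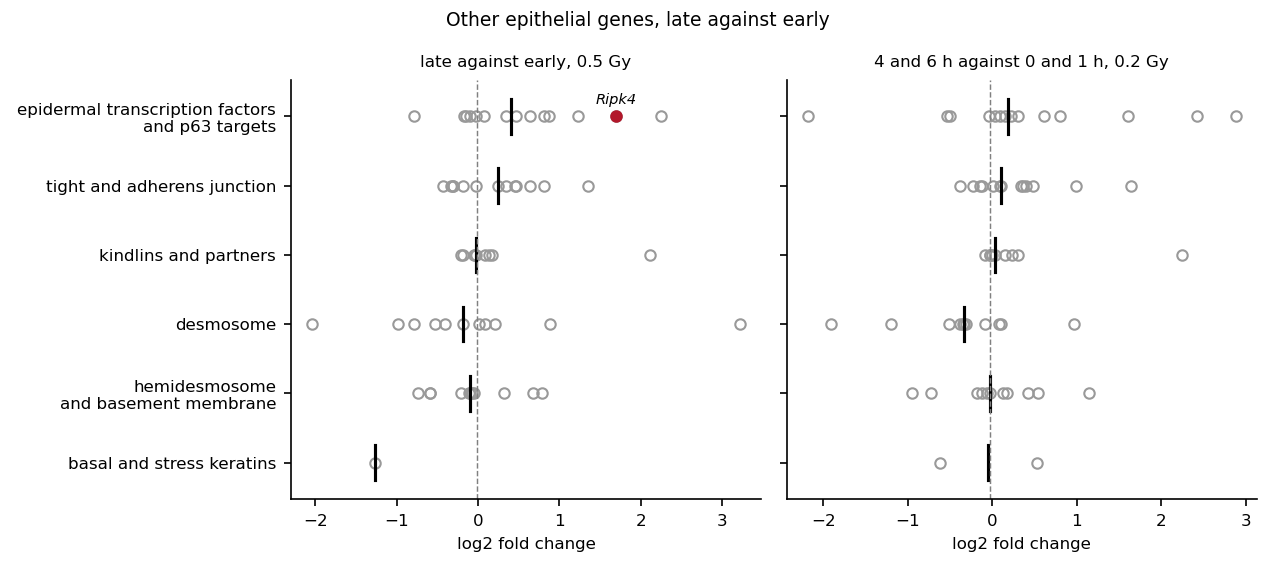
Log2 fold change of late against early libraries (horizontal axes) for each tested gene of 6 groups of other epithelial genes, at 0.5 Gy (left) and 0.2 Gy (right). Open circles are genes, black bars group medians, the dashed line the median of all genes tested, and the filled circle is Ripk4 at 1.70, the single gene called by edgeR.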

How the data were processed

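The authors estimated reads per transcript with salmon on the Ensembl transcripts of the mouse genome GRCm38, from paired-end reads of 30 nt, and deposited estimated counts and TPM for 130740 transcripts in each of 13 libraries. Neither the estimated counts nor the TPM were normalized between libraries by the authors. The deposited comparisons of each time point with 0 h, which hold fold changes and p-values from DESeq2 (1.24.0 per the labels), and a table of normalized counts that pools the 0.5 Gy replicates were not used. In a table of the study, the read totals of the 1 h and 4 h replicates stand the other way round than in the files, while its numbers of transcripts match the labels, so the labels were kept.

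Estimated counts were summed per gene of GENCODE M21 and rounded, which left out 402 transcripts with at most 0.495% of the reads of a library. Library totals were 15709549 to 30430104, and a count of 0 allows up to 3 reads by counting error alone. Sums were scaled with TMM, filtered with filterByExpr and tested with edgeR 4.0.16 (quasi-likelihood, Benjamini-Hochberg adjustment over all genes tested) in R 4.3.3. Calls needed an adjusted p below 0.05 with a log2 fold change above 1 in size. The SE is the log2 fold change divided by the root of the F statistic. Models were fitted, for late against early and each time point against 0 h at 0.5 Gy, for 11 libraries of both doses without 2.5 h, and for all 13 libraries. Single libraries took their spread from the others, and pooled time points are not replicates, so that an SD over them includes change over time. Log2 CPM used a prior count of 2. Of these steps, the edgeR fit of each model was tested on simulated counts, for a single contrast per model.

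The 9 genes and the lists of other epithelial genes and cell markers were chosen with earlier results of these data known. Also named were, for each of the 9, the 3 protein-coding genes with the most similar pattern, from each list the called genes or else the 2 with the highest mean CPM, and Trp63. Alternatives were DESeq2 1.42.0, with and without its beta prior, its size factors, no filter and protein-coding transcripts only. Others were a block for the generation of the 0.5 Gy libraries, called the replicate block, and leaving out 2.5 h or single libraries. TPM and a prior count of 0.5 were also used. Deviations of same-numbered libraries from their group means correlated with r of 0.115, 0.072 and 0.099 over 31254 genes. Promoters are from RefSeq.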

Additional observations from a re-analysis of the deposited data

How the results depend on the processing

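Scaling by DESeq2's size factors moved no count of calls among the 9 genes, gave 30 in place of 29 calls over all genes at 0.5 Gy late against early and 8 in place of 9 between doses, and turned the direction of Fermt3 alone, between doses (−0.02 in place of 0.03). With 2 called at 0.5 Gy late against early, 1 of the 9 genes remained under the replicate block (Fermt1), under the block with the numbers of 1 h and 4 h exchanged (Fermt1), with protein-coding transcripts only (Cldn4) and without 2.5 h (Fermt1), where Cldn4 stood at 1.48, 1.61 and 1.53 and Fermt1 at 2.62 for protein-coding transcripts. The block follows the generation that the labels give, in which the single 2.5 and 6 h libraries of 0.5 Gy belong to the second. It therefore also stands beside the results whose calls it changed. Among all genes, 29 calls there became 58 without a filter, 251 with DESeq2, 18 with the replicate block and 14 without 2.5 h. Against 0 h at 0.5 Gy, 0 calls became 139 without a filter, 257 with DESeq2, 214 with its beta prior and 8 with the block, holding 1, 4, 5 and 0 of the 9 genes. At 0.2 Gy, 13 calls became 32 without a filter, 147 with DESeq2 and 0 with protein-coding transcripts only, and 1 of the 9, Fermt1, was called without a filter, with DESeq2 and with the block. The difference between doses had 9 calls, 22 without a filter, 131 with DESeq2 and 0 with protein-coding transcripts only. Each 0.2 Gy time point against 0 h gave 2 calls together, 49 without a filter, 134 with DESeq2 (1 of the 9), 11 with the block and 0 with protein-coding transcripts only. Directions turned for Itgb4 at 0.5 Gy (0.16 with the block, 0.00 with exchanged numbers), for Perp (−0.01), Krt5 (1.62) and Fermt3 (−0.07) between doses with the block, for Fermt3 there with DESeq2 (−0.03), and for Krt14 at 0.2 Gy with protein-coding transcripts only (0.77). The causes were not tested, beyond the fewer libraries or genes that an alternative itself fits. Leaving out 1 library gave 10 to 37 calls and 0 to 1 of the 9 at 0.5 Gy late against early (10 without replicate 1 of 0 h, replicate 2 of 4 h or 6 h, 12 without replicate 2 of 0 h, 14 without 2.5 h), 1 to 12 and 0 against 0 h, 1 to 18 and 0 to 1 at 0.2 Gy, 0 to 13 and 0 between doses, and 1 to 3 and 0 for the 0.2 Gy time points. In such fits at 0.2 Gy a side is left with 1 library, which is assumed to vary like the others. Log2 changes then ranged at 0.5 Gy from −1.80 to 0.28 for Lypd3, from −2.43 to 0.20 for Asprv1 and from −0.53 to 0.35 for Itgb4, at 0.2 Gy from −0.59 to 0.66 for Krt14 and from −0.40 to 0.30 for Itgb4, and between doses from −0.38 to 0.93 for Perp, −0.76 to 0.07 for Fermt1, −2.12 to 0.82 for Asprv1, −3.11 to 2.67 for Krt5, −0.51 to 0.54 for Itgb4, −0.35 to 0.80 for Ripk4 and −0.40 to 0.51 for Fermt3. Depth limits Krt5 and Krt14 most, with 3 or fewer reads in 6 and 7 of the 13 libraries.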
